A study of Mus musculus with 56 samples.

Results

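The comparison is of kidneys taken 4 h into the light phase with kidneys taken at lights-on, in mice that had food only in the daytime. Its libraries were taken by the regimen and time in their labels, as the 4 libraries of daytime-restricted feeding (DRF) at zeitgeber time 4 (ZT4, hours after lights-on) and the 8 libraries of DRF at ZT0 and ZT24, which are the same clock time 1 day apart. These are 12 of the 56 libraries of the series, each from the poly(A) RNA of a separate female C57BL/6J mouse aged 9 weeks, per the labels. All groups, the control regimen included, were kept in a cycle of 12 h light and 12 h dark, first with food at all times for 7 days and then for 7 days under DRF or under nighttime-restricted feeding (NRF), which is the other regimen of the series. The labels name no mutation or drug in any group. The clock hours at which food was given and taken away are not given in the sources used here, so the time since the first bite at ZT4 is not known, and arrival of food and arrival of light cannot be told apart within DRF. The change was also set against the same hours of light under NRF, where food was given at night only. It was further set against NRF ZT16 minus NRF ZT12, the start of the dark phase, in which that regimen had food. Neither comparison separates food from light, as under NRF the night with food ended at lights-on and food came with the dark.

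As background, the kidney takes up glucose, amino acids and fatty acids from blood and filtrate and changes its fuel with feeding. In the fasted state the nuclear receptor PPARA raises genes of fatty acid oxidation and ketone synthesis, and insulin after a meal lowers several of them. SREBP factors, which are released from the membrane of the endoplasmic reticulum (ER) when sterols are low, raise genes of cholesterol synthesis and uptake. Chaperones of the ER fold secreted and membrane proteins and are raised by the unfolded protein response, whereas cytosolic chaperones are raised by the heat shock factor HSF1, for which the daily rise of body temperature is a known input. The circadian clock is a loop in which ARNTL with CLOCK or NPAS2 raises the Per, Cry and Nr1d genes, whose proteins repress it. In liver the clock is known to follow feeding time.

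Levels are given as normalised TPM, that is, TPM (reads per base of transcript, scaled to the same total in each library) rebuilt from the deposited table and rescaled between libraries by the median of ratios. Recovered reads totalled 25.434 to 28.135 M per library over the series. Tests were made with limma on log2(normalised TPM + 1) over 13394 genes with a mean of at least 1, with Benjamini-Hochberg adjustment over all of them and a threshold of 0.05, and a log2 change below is on that scale, which understates the change of low genes. Between DRF ZT24 and DRF ZT0, limma called 0 genes, while 616 had an unadjusted p under 0.05, and limma-voom was not run on that pair. The marker sums showed kidney in all 12 libraries, from 49501 to 137793 normalised TPM for the 8 proximal tubule markers and from 3575 to 7429 for the 7 markers of the loop of Henle and medulla. The proximal tubule sum ran from 49501 to 56648 at ZT4 and from 55380 to 137793 at ZT0 and ZT24, most of it from Kap, whose recovered reads could not be checked, an abundant kidney transcript at 40246 to 46893 normalised TPM at ZT4 and 46787 to 129843 at ZT0 and ZT24. In bulk RNA, fewer cells of a type and less RNA per cell cannot be told apart. Markers of immune cells summed to 19.9 to 29.3 normalised TPM, those of adrenal gland to 3.53 to 5.38 over the 3 of 7 measured, and those of pancreas to 53.9 to 114.2 over 2 of 5, of which Cela1 rose. Markers of liver (213 to 446) and of podocytes (266 to 402) overlapped between the groups. A pair of libraries stood apart. DRF ZT0 replicate 1 had the highest sum of 6 adipose tissue markers, at 161 normalised TPM against 0.210 to 65.7 in the other 11 libraries, and the highest interferon sum, at 553 against 160.3 to 305. DRF ZT4 replicate 4 had the lowest blood sum, at 1523 against 2713 to 7552 in the other 11, and the highest Aqp2. The part of fat, blood or interferon in the results was not tested, and counts without either library are given below.

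Over the first 4 h of light under DRF, 2525 genes rose and 2274 fell, which is 18.9% and 17.0% of the genes tested. The changes were mostly small, with a median absolute log2 change of 0.292 among the genes called. A change of at least 1.5-fold was seen in 233 genes that rose and 281 that fell, and of at least 2-fold in 66 and 58. The 4 ZT4 libraries lay wholly above the 8 others for 1171 genes (8.74%) and wholly below for 1096 (8.18%). Among genes with a mean of at least 10 normalised TPM whose groups did not overlap, the 10 largest rises held 4 ER stress genes (Sdf2l1, Creld2, Manf and Hspa5), the clock genes Dbp and Per2, the sterol synthesis enzyme Msmo1, the acetyltransferase genes Nat8f6 and Nat8f5, and Gm38481. Among the 10 largest falls were 3 genes of fasting metabolism (Angptl4, Pdk4 and Ehhadh) and Tmem252, Ypel2, Ndrg1, Gm31371, Clec2h and Rasd1.

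**Figure D1:**
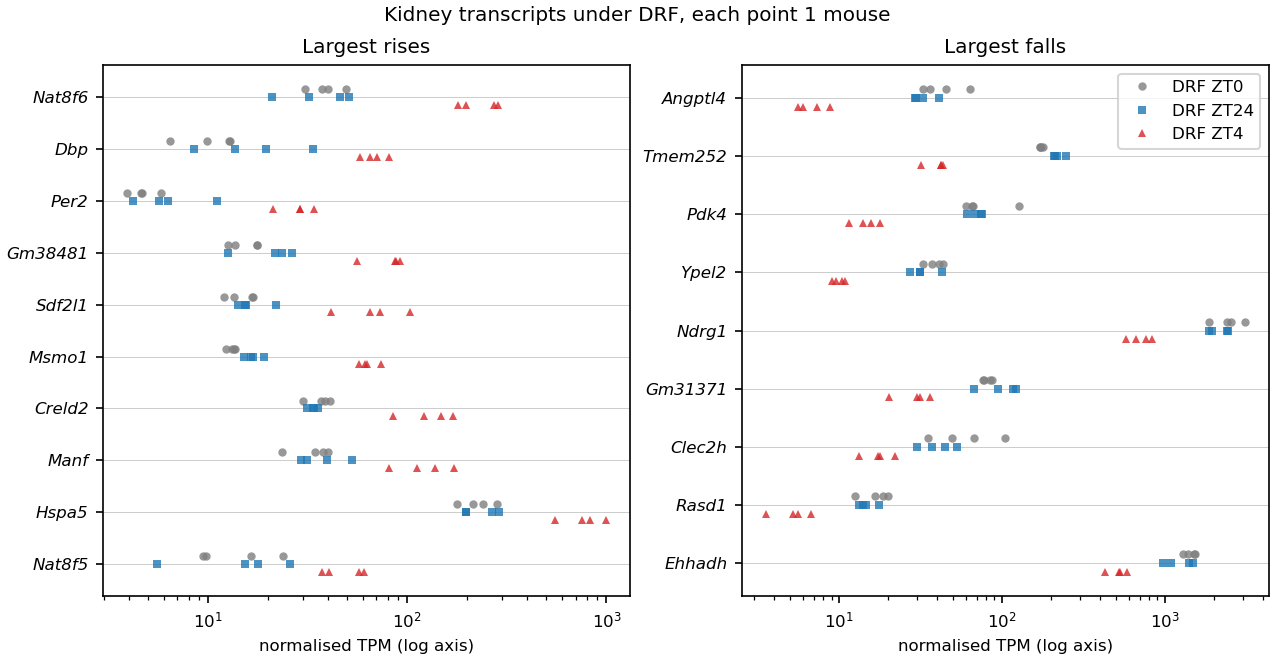
Normalised TPM (x axis, log scale) of the 10 genes with the largest rises (left) and 9 of the 10 with the largest falls (right), 1 row for each gene and 1 point for each mouse: DRF ZT0 (grey circles), DRF ZT24 (blue squares) and DRF ZT4 (red triangles). For these genes, chosen for it, the 4 ZT4 mice lie apart from the 8 others, as for Nat8f6 (180.0 to 284 against 20.9 to 50.9).

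Nat8f6, which lies on chromosome 6 from 85808024 to 85820954 (GRCm38) in a cluster of N-acetyltransferase-like genes, had the largest rise among genes with a mean of at least 10. It stood at 284, 274, 180.0 and 197 normalised TPM in the 4 ZT4 mice and from 20.9 to 50.9, with a median of 38.6, in the 8 mice of ZT0 and ZT24. All 4 ZT4 mice were far above the highest of the others, and the log2 change was 2.59 ± 0.22 (SE) with an adjusted p of 1.09e-12. Its neighbour Nat8f5, whose annotation overlaps it on the same strand, so that reads may be split between them, moved from a median of 15.9 to 57.01, 60.7, 37.4 and 40.7 (log2 change 1.70). Tmem252, a membrane protein gene, fell from a range of 170.5 to 246 to 43.6, 42.5, 42.2 and 32.01, a log2 change of -2.27 ± 0.14 (SE) with an adjusted p of 2.79e-17. Ndrg1, an abundant stress- and hypoxia-responsive gene, stood from 1872 to 3098, with a median of 2400.5, at lights-on and at 665, 832, 766 and 574 at ZT4. Its log2 change was -1.71 ± 0.16 (SE) with an adjusted p of 6.91e-12, and all 4 mice were below the lowest lights-on value. Ypel2 went from a median of 35.01 to 10.8, 9.103, 10.5 and 9.55 with little spread (log2 change -1.73 ± 0.10 (SE)).

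Chaperones of the ER rose as a group. Of 22 genes in the list of ER chaperones and the unfolded protein response, 21 rose and 0 fell (95.5% against 18.9% of all genes), with a median log2 change of 0.72 beside 0.01 for all genes tested. The exception, Atf6, the ER-bound stress sensor, had a log2 change of 0.09, which did not pass the test (adjusted p = 0.292). The count was 21 without any one of the 12 libraries. Hspa5, the main HSP70 chaperone of the ER, stood at 994, 827, 549 and 756 normalised TPM at ZT4 and from 178 to 289.5, with a median of 226, at lights-on, so the lowest ZT4 mouse was above the highest of the others. The log2 change was 1.73 ± 0.13 (SE) with an adjusted p of 1.41e-14. Creld2, a disulfide isomerase of the ER, stood at 169, 149, 84.5 and 121 at ZT4 and from 29.9 to 40.9, with a median of 34.99, at lights-on. Manf, a secreted protein of the ER stress response, stood at 172, 138, 81.2 and 112 and from 23.6 to 52.7, with a median of 36.3, respectively, and Sdf2l1, a cofactor of HSPA5, at 103, 72.8, 41.3 and 65.4 and from 12.03 to 21.9, with a median of 15.5, respectively. For these 4 genes replicate 3 was the lowest of the ZT4 mice and replicate 1 the highest, and no gene's groups overlapped. The transcription factor Xbp1 stood at 272, 240.1, 209.9 and 263 at ZT4 and from 97.1 to 154, with a median of 129.7, at lights-on (log2 change 0.93 ± 0.10 (SE)), and Hyou1, Pdia4, Dnajb11 and Hsp90b1, which assist folding in the ER, had log2 changes of 1.63, 1.07, 1.01 and 0.90. Ddit3, a pro-apoptotic transcription factor of the response, changed by 0.56 (adjusted p = 3.40e-05).

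Promoters of these genes are shown because the members moved together. In RefSeq windows of GRCm38.p6 from 250 bases before to 50 after each start, 10662 of the genes tested had a window. The ER stress response element was searched on both strands as CCAAT followed by CCACG with 9 bases between them, and it was held by 8 of the 19 ER members with a window, 42.1%, against 0.188% of the genes tested and 0.119% of all 32851 windows. The holders were Hspa5, Hsp90b1, Pdia6, Calr, Canx, Dnajc3, Creld2 and Syvn1, and a match of letters is not evidence that a factor was bound. Such a share, here and for the elements below, is a property of the genes listed and adds no support for the changes measured. The 3 stretches below lie upstream of the start at chr2:34772005-34772063 (+ strand), chr15:88819500-88819558 (+ strand) and chr12:17266471-17266529 (+ strand), and the match is in capitals, in Creld2 on the other strand.
Hspa5: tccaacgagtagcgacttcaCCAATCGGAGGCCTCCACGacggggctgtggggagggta
Creld2: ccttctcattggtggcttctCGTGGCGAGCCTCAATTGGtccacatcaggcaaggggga
Pdia6: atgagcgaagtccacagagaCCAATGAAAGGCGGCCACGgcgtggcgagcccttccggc

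Cytosolic chaperones rose as well. Of 27 cytosolic and mitochondrial heat shock genes, 21 rose and 0 fell (77.8% against 18.9%), with a median log2 change of 0.76, and 20 rose without DRF ZT4 replicate 4. Hspa8, the constitutive HSP70 and one of the most abundant members, stood at 3917, 4078, 3593 and 3285 normalised TPM at ZT4 and from 1168 to 1788, with a median of 1456, at lights-on. The log2 change was 1.37 ± 0.12 (SE) with an adjusted p of 1.30e-12, and the groups lay far apart. Hsph1, its nucleotide exchange factor, stood at 107, 92.5, 72.3 and 167 at ZT4 and from 28.4 to 46.4, with a median of 34.4, at lights-on (log2 change 1.55 ± 0.23 (SE)). Hspb1, a small heat shock protein, stood at 92.5, 71.6, 60.02 and 183 at ZT4 and from 21.2 to 50.4, with a median of 30.8, at lights-on (log2 change 1.57 ± 0.32 (SE)). In both, replicate 4 was far above the other 3 mice, and without it the log2 changes were 1.32 and 1.25. Hspa1b, the stress-inducible HSP70, ranged widely, at 97.2, 64.01, 43.3 and 167 at ZT4 and from 14.3 to 48.8, with a median of 24.04, at lights-on, so the groups overlapped, and reads may be split with its near-identical copy Hspa1a. The HSP90 system moved with less spread, as Hsp90ab1 stood at 1799.7, 1716, 1527 and 1696 at ZT4 and from 978 to 1033, with a median of 988, at lights-on, and its co-chaperones Stip1 and Chordc1 had log2 changes of 1.07 ± 0.06 (SE) and 1.29 ± 0.08 (SE). Hsf1 itself changed by 0.48 (adjusted p = 2.77e-09). Of the mitochondrial members, Hspe1 and Hspd1, which form 1 chaperonin, changed by 0.55 and 0.26, whereas Hspa9 and Trap1 had values of 0.06 and -0.05 that did not pass the test.

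The heat shock element was searched as GAANNTTC, which reads the same on both strands. It was held by 12 of the 21 members with a window, 57.1%, against 7.02% of the genes tested and 7.86% of all windows. The stretches lie at chr17:34959315-34959362 (- strand), chr5:135887782-135887849 (+ strand) and chr4:40722324-40722371 (+ strand), all upstream of the start, with the matches in capitals. Dnaja1, a cytosolic J-protein, changed by 1.21 ± 0.08 (SE) on the log2 scale.
Hspa1b: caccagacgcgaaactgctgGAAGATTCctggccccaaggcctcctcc
Hspb1: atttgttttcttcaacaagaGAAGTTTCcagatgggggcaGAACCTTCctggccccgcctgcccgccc
Dnaja1: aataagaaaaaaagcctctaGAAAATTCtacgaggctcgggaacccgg

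Cirbp, which encodes an RNA-binding protein that is raised by cold, moved the other way. It stood at 18.9, 21.5, 20.3 and 21.3 normalised TPM at ZT4 and from 38.6 to 70.2, with a median of 50.8, at lights-on, a log2 change of -1.25 ± 0.12 (SE) with an adjusted p of 1.42e-11, and the 4 ZT4 mice lay close to each other. Rbm3, the other cold-inducible gene listed, had a value of -0.12 that did not pass the test (adjusted p = 0.294).

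Cholesterol synthesis and uptake rose across nearly the whole pathway. Of 24 genes, 22 rose and 0 fell (91.7% against 18.9%), with a median log2 change of 0.84. Msmo1, a demethylase of the late pathway, stood at 62.6, 73.5, 57.6 and 61.1 normalised TPM at ZT4 and from 12.4 to 19.1, with a median of 14.5, at lights-on, a log2 change of 2.02 ± 0.11 (SE) with an adjusted p of 5.34e-18. The isoprenoid enzymes Fdps and Idi1 stood at 45.4, 49.01, 37.3 and 43.8 and at 89.5, 103, 70.3 and 93.9 at ZT4, and their lights-on values ran up to 16.9 and 46.1. None of these 3 genes had overlapping groups. Insig1, which holds SREBP factors in the ER, stood at 84.1, 108, 94.8 and 87.4 at ZT4 and from 23.8 to 39.2, with a median of 30.3, at lights-on (log2 change 1.56 ± 0.15 (SE)), and Fdft1, which makes squalene, changed by 1.14 ± 0.09 (SE). Srebf2, the factor of this pathway, changed by 0.40 (adjusted p = 3.71e-06). Cyp51, a demethylase of lanosterol, had a value of 0.23 that did not pass (adjusted p = 0.136). The letters TCACNCCAC of a sterol regulatory element, on either strand, were found in 1 of 16 member windows, that of Hmgcs1, and in 1.41% of the genes tested.

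Fatty acid synthesis moved in part. Of 17 genes, 7 rose and 0 fell (41.2% against 18.9%), and leaving out a library gave 4 to 7, the lowest without DRF ZT4 replicate 1 or replicate 2. Srebf1, the lipogenic SREBP gene, stood at 48.9, 50.8, 51.9 and 53.2 normalised TPM at ZT4 and from 15.1 to 19.8, with a median of 17.9, at lights-on (log2 change 1.48 ± 0.13 (SE)). Fasn, fatty acid synthase, stood at 54.5, 43.9, 48.3 and 100.2 at ZT4 and from 16.7 to 40.1, with a median of 19.7, at lights-on. Its groups did not overlap, but its adjusted p of 0.0461 was near the threshold and passed it neither without DRF ZT4 replicate 4 (log2 change 1.14, adjusted p = 0.148) nor without 10 of the other 11 libraries in turn. Scd2, a desaturase, stood at 116, 120.3, 111 and 189 at ZT4 and from 55.4 to 74.4, with a median of 61.6, at lights-on, and its log2 change was 1.05, or 0.88 without replicate 4. Fat cells express Fasn strongly, and the adipose marker sum was 20.1, 0.418, 18.4 and 56.1 in the 4 ZT4 mice and 0.210 to 161 in the others, so the groups overlapped in it. Its part in the Fasn values was not tested. Acly, Scd1 and Elovl6 had values of 0.24, 0.34 and -0.03 that did not pass.

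PPARA targets and fatty acid oxidation fell. Of 32 genes tested (34 listed, with Creb3l3 and Fgf21 under the filter on low values), 24 fell and 0 rose (75% against 17.0% of all genes), with a median log2 change of -0.46, and 23 or 24 fell when any one library was left out. Angptl4, an inhibitor of lipoprotein lipase that is raised by fasting, stood at 5.64, 7.29, 5.97 and 8.75 normalised TPM at ZT4 and from 29.2 to 63.8, with a median of 34.5, at lights-on, a log2 change of -2.31 ± 0.35 (SE) with an adjusted p of 1.25e-06. Pdk4, the kinase that shuts off pyruvate entry into the mitochondrial cycle, stood at 17.9, 11.5, 13.97 and 15.7 at ZT4 and from 59.8 to 128, with a median of 67.5, at lights-on (log2 change -2.24 ± 0.28 (SE)). In both the groups lay apart. The peroxisomal enzyme Ehhadh stood at 524, 529, 590.0 and 429 at ZT4 and from 978 to 1539, with a median of 1404, at lights-on, and Cpt1a, which admits long-chain fatty acids into mitochondria, at 214, 234, 212 and 200.2 and from 411 to 489, with a median of 430.4, respectively (log2 change -1.02 ± 0.08 (SE)). Enzymes of the oxidation spiral fell by less, with Acadvl, Hadha and Decr1 at log2 changes of -0.34, -0.41 and -0.46. Ppara changed by -0.60 (adjusted p = 3.18e-04). The fatty acid hydroxylases Cyp4a10 and Cyp4a14, abundant in proximal tubule, had values of -0.19 and -0.30 that did not pass, whereas Cyp4a31 changed by -0.57, and reads may be split within this family. Plin2, which coats lipid droplets, had a value of 0.17 (adjusted p = 0.275).

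**Figure D2:**
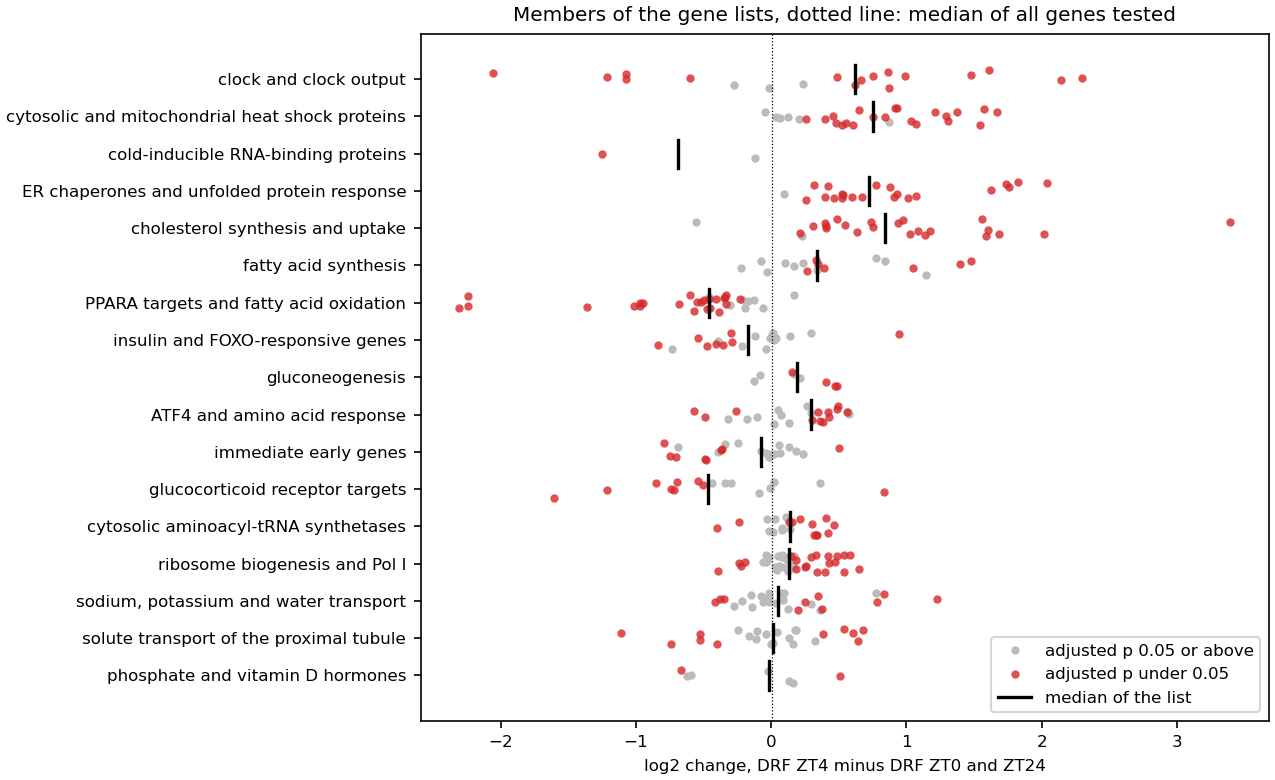
Log2 change at DRF ZT4 against DRF ZT0 and ZT24 (x axis) of every tested member of 17 gene lists (rows), red where the adjusted p was under 0.05 and grey otherwise, with the list median as a black bar and the median of all genes tested (0.008) as a dotted line. ER chaperones (median 0.722), heat shock genes (0.756) and cholesterol genes (0.843) lie to the right, and PPARA targets (-0.459) and glucocorticoid receptor targets (-0.471) to the left.

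Clock genes moved in both directions. Of 19 genes, 11 rose and 5 fell (57.9% against 18.9% and 26.3% against 17.0%). Dbp, a PAR bZIP output factor driven by ARNTL, stood at 70.9, 80.7, 65.3 and 58.1 normalised TPM at ZT4 and from 6.42 to 33.6, with a median of 12.8, at lights-on, a log2 change of 2.30 ± 0.28 (SE) with an adjusted p of 9.38e-09. Per2 stood at 33.9, 28.97, 21.3 and 28.98 at ZT4 and from 3.93 to 11.1, with a median of 5.202, at lights-on (log2 change 2.14 ± 0.15 (SE)), and Per3 at 20.8, 19.1, 17.8 and 20.4 and from 3.52 to 12.7, with a median of 5.93, respectively (log2 change 1.61 ± 0.17 (SE)). Per1, another Per gene and a glucocorticoid target as well, went the other way, at 11.6, 8.23, 9.58 and 12.9 at ZT4 and from 18.98 to 30.4, with a median of 26.1, at lights-on (log2 change -1.21 ± 0.24 (SE)), and none of these genes' groups overlapped. Npas2, a partner of ARNTL, stood at 2.67, 2.49, 4.09 and 2.92 at ZT4 and from 12.1 to 20.3, with a median of 16.5, at lights-on (log2 change -2.05 ± 0.14 (SE)), and Arntl at 5.12, 4.25, 5.21 and 5.94 and from 9.49 to 14.97, with a median of 11.9, respectively (log2 change -1.07 ± 0.14 (SE)). Nfil3, a repressor that opposes Dbp, changed by -1.07 ± 0.16 (SE). Among the repressors of the loop, Nr1d1, Nr1d2 and Ciart changed by 0.87, 0.75 and 1.47, and the outputs Tef and Hlf by 0.87 and 0.49. Clock and Cry1 had values of -0.01 and 0.23 that did not pass.

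The E-box, CACGTG on both strands, was found in 5 of 16 clock gene windows (31.2%) and in 11.5% of the genes tested and 7.15% of all windows, and the holders were Per1, Cry1, Bhlhe41, Ciart and Tef. The D-box TTATGTAA, on either strand, was found in 1 window, that of Per3. The stretches lie upstream of the start at chr3:95882247-95882364 (- strand) and chr15:81802526-81802571 (+ strand), with the E-boxes in capitals, 3 of them in Ciart.
Ciart: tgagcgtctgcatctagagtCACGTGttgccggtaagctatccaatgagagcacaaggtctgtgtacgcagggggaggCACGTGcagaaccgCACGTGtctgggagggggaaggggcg
Tef: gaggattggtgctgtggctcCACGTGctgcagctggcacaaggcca

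Hormone-linked lists moved less evenly. Of 16 glucocorticoid receptor targets tested, 8 fell and 1 rose (50% against 17.0%), and the falls numbered 6 without DRF ZT4 replicate 4. Zbtb16 stood at 1.92, 0.938, 1.19 and 1.65 normalised TPM at ZT4 and from 1.97 to 11.9, with a median of 7.03, at lights-on (log2 change -1.61 ± 0.39 (SE)), and Klf9, a repressor induced by glucocorticoids, at 76.4, 75.4, 86.7 and 76.9 and from 122 to 149, with a median of 129, respectively. The gene that rose was Tsc22d3 (GILZ), which is also raised by aldosterone, at 39.5, 36.6, 28.3 and 49.4 at ZT4 and from 15.04 to 24.1, with a median of 21.2, at lights-on, while Fkbp5 and Sgk1 had values of -0.44 and 0.36 that did not pass. Of 20 insulin- and FOXO-responsive genes, 7 fell and 1 rose (35% against 17.0%). Irs2, an insulin receptor substrate that FOXO raises, stood at 3.1, 2.52, 3.25 and 4.87 at ZT4 and from 4.49 to 9.94, with a median of 6.81, at lights-on, with overlapping groups (log2 change -0.84 ± 0.16 (SE)). Igfbp1 and Txnip, both FOXO- or glucose-responsive, had values of -0.40 and -0.22 that did not pass. The riser, Bcl6, stood at 7.46, 11.3, 7.44 and 32.6 and from 3.6 to 10.2, with a median of 5.77, respectively and did not pass without replicate 4 (log2 change 0.49, adjusted p = 0.332). Of 23 immediate early genes tested, 7 fell and 1 rose (30.4% against 17.0%), and the riser was Klf4 (0.50). Fos, a component of AP-1, stood at 0.549, 0.752, 0.794 and 0.993 at ZT4 and from 1.04 to 5.02, with a median of 1.83, at lights-on (log2 change -0.79 ± 0.21 (SE)). The falls numbered 4 to 8 when a library was left out, the lowest without DRF ZT4 replicate 2, and 4 with ZT0 alone or ZT24 alone as the baseline.

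Genes of protein synthesis rose in part and by little. Of 20 cytosolic aminoacyl-tRNA synthetases, 10 rose and 2 fell (50% against 18.9%), led by Yars, which stood at 22.5, 20.8, 19.8 and 20.8 normalised TPM at ZT4 and from 12.5 to 15.9, with a median of 15.4, at lights-on (log2 change 0.46 ± 0.05 (SE)). The 2 that fell were Lars and Qars, at log2 changes of -0.40 and -0.24. Of 42 ribosome biogenesis genes, 17 rose and 4 fell (40.5% against 18.9%), with Bysl, a factor of small-subunit assembly, at 19.1, 18.4, 18.04 and 15.9 and from 9.898 to 12.8, with a median of 10.9, respectively. Npm1 and Ncl, abundant nucleolar proteins, were among those that fell, at log2 changes of -0.40 and -0.24. Of 23 genes of the ATF4 and amino acid response, 9 rose and 3 fell (39.1% against 18.9%), Ddit3 and Trib3 up by 0.56 and 0.49, and Sesn2, an inhibitor of mTORC1, changed by -0.57. Asns, a canonical ATF4 target, had a value of 0.13 (adjusted p = 0.732). Of 8 gluconeogenic genes, 4 rose and 0 fell (50% against 18.9%), and the count was 2 without DRF ZT4 replicate 2. Among the risers, Eno1 and Gpi1, which are also glycolytic, changed by 0.49 and 0.15, and Slc37a4, the transporter of glucose 6-phosphate, by 0.41. The groups overlapped for Gpi1 and Slc37a4. Neither passed without DRF ZT4 replicate 2 (adjusted p = 0.112 and 0.0588), and Gpi1 did not pass without replicate 1 or replicate 3 either. The recovered reads of Eno1, Gpi1 and Pck1 could not be checked. Pck1, the rate-limiting enzyme, stood at 5160.1, 6509, 6342 and 4594 at ZT4 and from 5136 to 7344, with a median of 6145, at lights-on, and G6pc had a value of 0.22, neither of which passed.

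Transport genes moved close to the background. In the list of sodium, potassium and water transport, 7 of 28 rose (25% against 18.9%) and 3 fell (10.7% against 17.0%). Aqp2, the vasopressin-regulated water channel of the collecting duct, stood at 389, 386, 393 and 1088 normalised TPM at ZT4 and from 131 to 336, with a median of 211, at lights-on (log2 change 1.23 ± 0.31 (SE)). One mouse, replicate 4, was far above the other 3, and the change was 0.86 without it, with an adjusted p of 0.0346. Avpr2, the vasopressin receptor, stood at 27.9, 30.5, 33.98 and 56.6 and from 17.7 to 22.7, with a median of 20.96, respectively (log2 change 0.78 ± 0.16 (SE)), with the same mouse highest. Of the 7 markers of the loop of Henle and medulla, 3 rose and 0 fell (42.9% against 18.9%), with Aqp2, Aqp3 (0.37) and Cldn16 (0.32) the risers and a median log2 change of 0.32. The sum of the 7 was 5604, 3997, 4755 and 5914 normalised TPM at ZT4 and 3575 to 7429 at lights-on, so the groups overlapped, and its part in the Aqp2 and Avpr2 values was not tested. The apical sodium transporters Slc9a3, Slc12a1 and Slc12a3 had values of 0.13, -0.05 and -0.28 that did not pass. In the proximal tubule list, 5 of 23 rose and 5 fell (21.7% each), or 3 fell without DRF ZT4 replicate 4. Slc16a1, the monocarboxylate transporter for lactate and ketones, stood at 26.96, 35.4, 36.8 and 28.2 at ZT4 and from 53.8 to 86.6, with a median of 70.7, at lights-on (log2 change -1.11 ± 0.15 (SE)), and Slc2a5, the fructose transporter, at 121, 123, 122 and 131 and from 66.6 to 90.8, with a median of 79.3, respectively (log2 change 0.68 ± 0.13 (SE)). Slc6a19, a neutral amino acid transporter, changed by -0.74, with overlapping groups. Of the 7 phosphate and vitamin D genes, Vdr, the vitamin D receptor, fell (-0.67) and Slc9a3r1, the scaffold of the phosphate transporter, rose (0.51), while Cyp24a1 and Cyp27b1 did not pass.

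The change was compared with that over the same hours of light under NRF, NRF ZT4 minus NRF ZT0 and ZT24, in 12 other mice. Under NRF these hours followed the night, when food was given. A difference between the regimens therefore joins the arrival of food under DRF with its end under NRF, and these cannot be told apart. Under NRF, 1367 genes rose and 1527 fell (10.2% and 11.4%). The difference between the regimens was tested as an interaction, and it passed for 5628 genes, or 42.0%. The signed log2 difference, DRF minus NRF, was positive for 2923 of them and negative for 2705. Of the 2525 genes that rose under DRF, 978 fell under NRF and 17 rose. Of the 2274 that fell under DRF, 906 rose under NRF and 34 fell. The 978 are 38.7% of the DRF rises and 64.0% of the NRF falls, and the 906 are 39.8% of the DRF falls and 66.3% of the NRF rises, against 11.4% and 10.2% of all genes that fell or rose under NRF. The interaction was positive for all 20 ER genes, 22 heat shock genes and 23 cholesterol genes that had one (of 22, 27 and 24 tested). It was negative for all 25 PPARA genes that had one (of 32). The median log2 change of the 32 was -0.459 under DRF and 0.155 under NRF. Under NRF, 14 of the ER genes, 18 of the heat shock genes and 14 of the cholesterol genes fell and 0 rose.

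Single genes show the crossing. Under NRF, Hspa5 stood from 339.9 to 555, with a median of 411, at lights-on and at 208, 318, 283 and 249 at ZT4, and the interaction was 2.41 ± 0.18 (SE) with an adjusted p of 1.63e-14. Msmo1 stood from 34.8 to 53.5, with a median of 42.2, at lights-on under NRF and at 22.4, 23.03, 22.3 and 16.8 at ZT4, so the groups were apart in the direction opposite to DRF (interaction 2.99 ± 0.16 (SE)). Angptl4 stood from 2.698 to 8.54, with a median of 4.36, at lights-on under NRF and at 10.95, 10.5, 41.7 and 66.8 at ZT4, with a wide spread between mice. Its interaction, -4.51 ± 0.50 (SE) with an adjusted p of 5.50e-10, was the most negative of those named, and others were Pdk4 (-3.66), Gm31371 (-3.12) and Tmem252 (-3.06). The most positive of those named, all with a mean of at least 10, were Nat8f6 (3.62), Gm38481 (3.36), Per2 (3.03), Msmo1 and Sdf2l1 (2.95). Per2 stood at 2.32, 3.11, 3.62 and 3.83 at NRF ZT4, below its lights-on range of 5.69 to 9.04, whereas it rose under DRF. Of the 19 clock genes, 13 had an interaction, 8 of them positive. Some moved the same way in both regimens. Dbp stood from 0.939 to 2.69, with a median of 1.79, at lights-on under NRF and at 6.65, 28.3, 42.03 and 21.9 at ZT4, and its interaction of -0.71 had an adjusted p of 0.151. Nr1d1, Arntl and Nfil3, too, changed in the same direction under NRF, with log2 changes of 2.59, -1.21 and -2.23. The size differed between the regimens for Nr1d1 (interaction -1.72, adjusted p = 8.95e-06) and Nfil3 (1.16, adjusted p = 6.60e-05), and for Arntl the interaction of 0.13 did not pass.

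**Figure D3:**
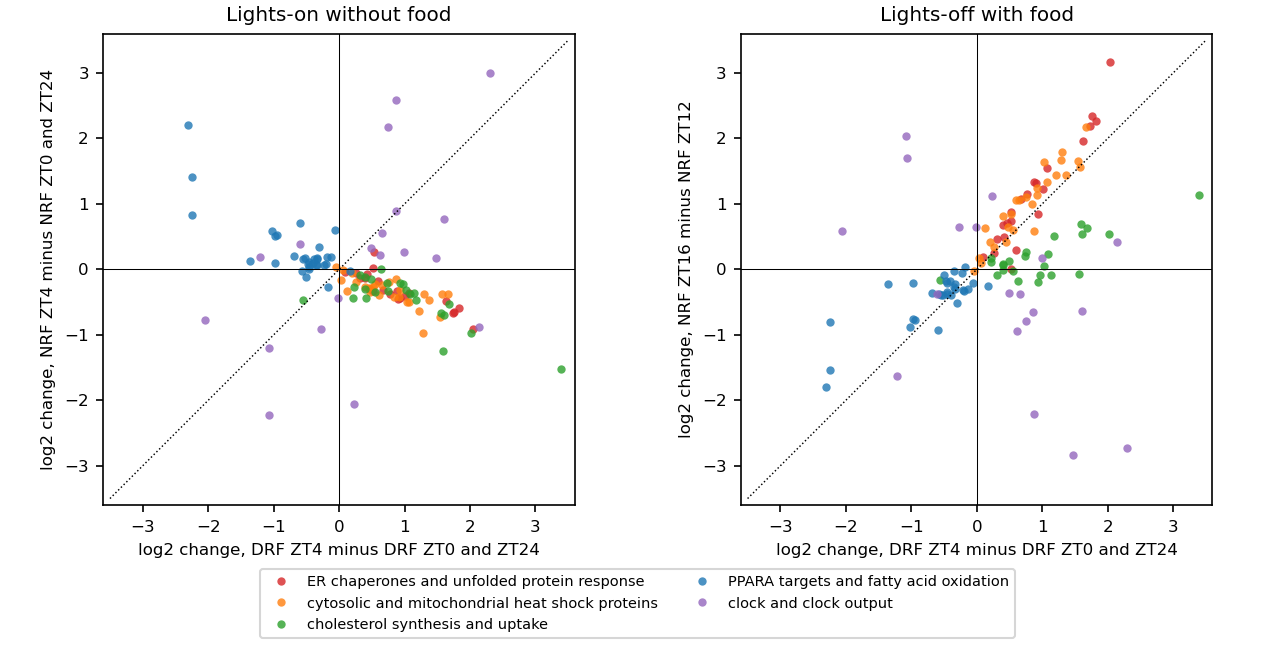
Log2 change at DRF ZT4 against DRF ZT0 and ZT24 (x axis of both panels) of the members of 5 gene lists, set against the NRF change over the same hours of light (left, y axis) and against NRF ZT16 minus NRF ZT12 (right, y axis), with the dotted line marking equal change. Most ER and heat shock genes lie below zero on the left and above it on the right, most cholesterol genes lie under the dotted line in both, and clock genes (purple) spread on both sides, as Dbp at 2.30 under DRF, 3.01 on the left and -2.73 on the right.

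The change was next compared with NRF ZT16 minus NRF ZT12, the first hours of dark in the regimen that had food at night. In that NRF comparison 2186 genes rose and 2298 fell (16.3% and 17.2%). Of the genes that rose under DRF, 1269 rose there and 54 fell, and of those that fell under DRF, 1228 fell there and 53 rose. The 1269 are 50.3% of the DRF rises and 58.1% of the NRF rises, and the 1228 are 54.0% of the DRF falls and 53.4% of the NRF falls. The interaction passed for 911 genes, or 6.8%, and was positive for 520 of them and negative for 391. With only the groups of the comparison in the fit it passed for 403, and without DRF ZT4 replicate 4 for 1350.

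Heat shock genes rose in both settings, 21 of 27 under DRF and 23 under NRF, with median log2 changes of 0.76 and 1.06, and 5 of 27 had an interaction (against 6.8% of all genes), all with the smaller change under DRF. Hspa8 stood at 1311, 1529, 1490.0 and 1699.9 at NRF ZT12 and 4026, 3673, 4192 and 4509 at NRF ZT16, and its interaction was -0.07 ± 0.18 (SE) (adjusted p = 0.864). Of the 22 ER genes, 5 had an interaction, all with the smaller change under DRF, Sdf2l1 among them at -1.13 ± 0.26 (SE). Cirbp, at 46.6, 56.7, 58.1 and 40.8 at NRF ZT12 and 14.1, 13.9, 13.5 and 14.4 at NRF ZT16, had an interaction of 0.51 (adjusted p = 0.0743). Cholesterol genes differed. Their median log2 change was 0.09 under NRF against 0.84 under DRF, and 15 of 24 had an interaction (against 6.8% of all genes), all larger under DRF. Under NRF, 7 of the 24 rose (against 16.3% of all genes) and 0 fell. Msmo1, Fdps and Idi1 were among the 7, at log2 changes of 0.55, 0.63 and 0.54. Insig1 stood at 70.1, 56.3, 57.3 and 48.4 at NRF ZT12 and 82.9, 56.9, 33.3 and 55.9 at NRF ZT16, an interaction of 1.63 ± 0.23 (SE) with an adjusted p of 2.70e-06. Fdft1 and Msmo1 had interactions of 1.23 and 1.47. Of the 32 PPARA genes, 4 had an interaction, all with the larger fall under DRF, Pdk4 at -1.44 and Ehhadh at -1.13 among them.

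Of the 17 lists, the clock genes had the largest share with an interaction, 17 of 19 against 6.8% of all genes. Dbp stood at 195, 224, 246 and 218 at NRF ZT12 and 62.5, 25.1, 22.1 and 31.7 at NRF ZT16, a fall where it rose under DRF, and the interaction was 5.03 ± 0.43 (SE) with an adjusted p of 6.31e-12. Among genes called under DRF with a mean of at least 10, the other most positive were Nr1d1 (3.09), Per3 (2.24), Gsta1 (2.005), a glutathione transferase with close copies, and R3hdml (1.92). Arntl stood at 1.22, 0.436, 0.405 and 0.334 at NRF ZT12 and 3.68, 6.27, 6.76 and 5.32 at NRF ZT16, and its interaction was -3.10 ± 0.22 (SE), with Npas2 at -2.64, both genes with a mean under 10. Among genes called under DRF with a mean of at least 10, the most negative were Nfil3 (-2.78), Ypel2 (-2.38), Tgtp1 (-2.34), Gbp6 (-2.16) and Iigp1 (-2.15). Tgtp1, Gbp6 and Iigp1 are GTPases raised by interferon, and at lights-on under DRF Tgtp1 and Iigp1 were highest in replicate 1 of ZT0, the library with the highest interferon sum (Tgtp1 80.4 against a median of 26.5). With ZT24 alone as the baseline these 3 did not pass, with values under DRF of -0.77, -0.73 and -0.86. Per1, which fell under both, had an interaction of 0.41 that did not pass.

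Within the DRF day, ZT4 was the highest of the 6 clock times for 17 of 22 ER genes, 17 of 27 heat shock genes and 17 of 24 cholesterol genes, against 22.8% of all genes, and the lowest for 21 of 32 PPARA genes, against 17.5%. As the rise and the fall at ZT4 enter these counts, they describe the profiles and add no support. Hspa5 had means of 781 ± 184 (SD, n = 4) at ZT4, 279 ± 27.02 at ZT8 and 701 ± 61.5 at ZT16, the second of these high points in the dark. Msmo1 had 63.7 ± 6.88 at ZT4 and 20.2 ± 2.23 at ZT8, and its next highest mean was 37.5 ± 2.56 at ZT12. Angptl4 and Pdk4 stayed low at ZT8, at 5.95 ± 1.798 and 9.32 ± 3.86, and had their highest means at ZT20, at 86.8 ± 39.96 and 290.3 ± 96.7. Dbp went on to 152 ± 33.4 at ZT8, and Npas2 to 0.87 ± 0.221.

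**Figure D4:**
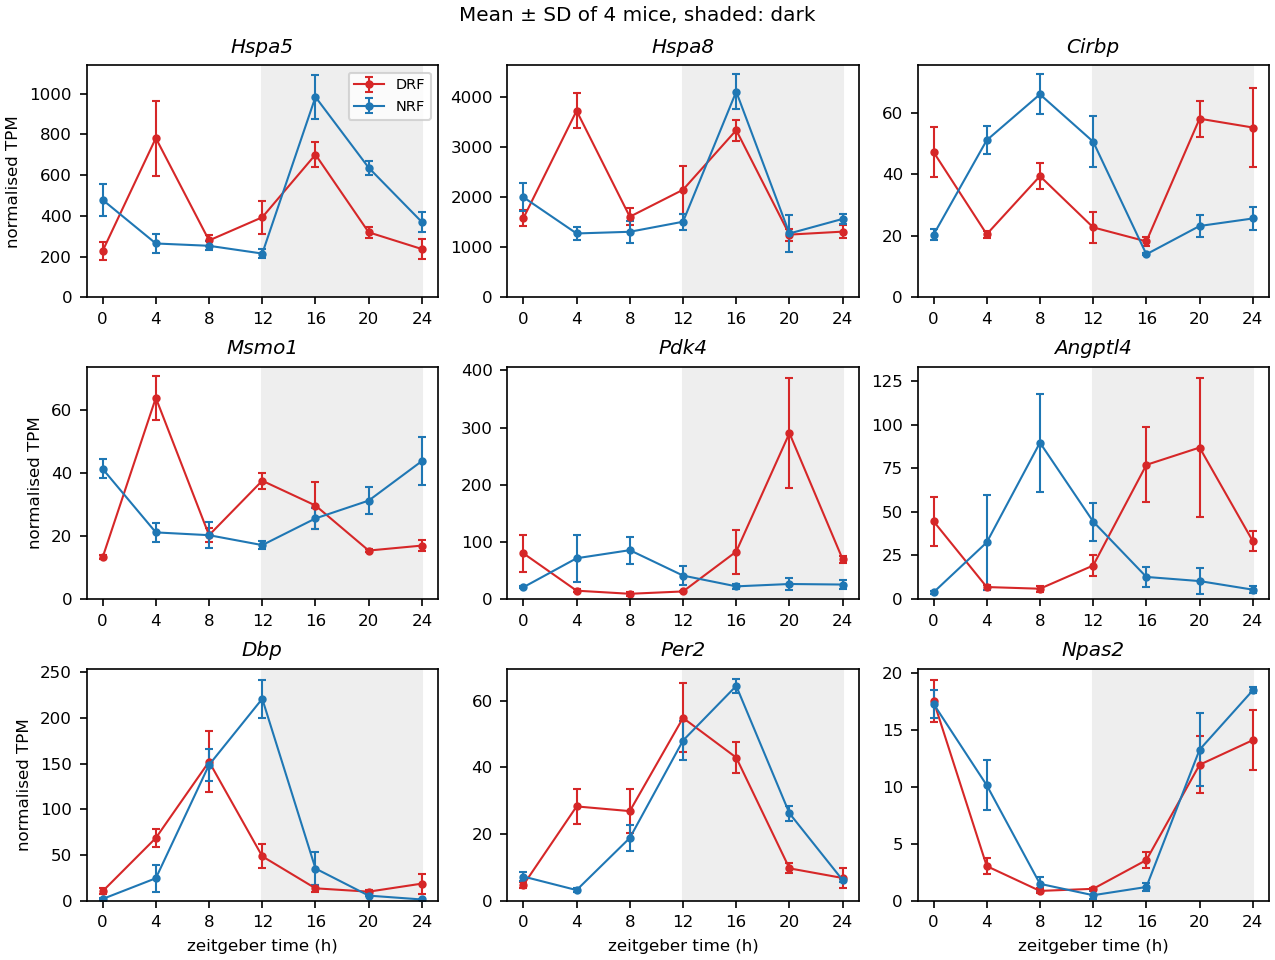
Normalised TPM (y axis) of 9 genes over zeitgeber time (x axis, h) under DRF (red) and NRF (blue), as mean ± SD of 4 mice for each point, with the dark phase shaded. Under DRF, Hspa5, Hspa8 and Msmo1 peak at ZT4 (Hspa5 at 781) and Pdk4 and Angptl4 are low there (Pdk4 at 14.7), whereas under NRF Hspa5 and Hspa8 are highest at ZT16.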

How the data were processed

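Poly(A) RNA of 56 mouse kidneys was sequenced, and per the labels the reads were processed with HISAT2, Bowtie2 and RSEM on mm10 and GRCm38.p6, with versions not given in the sources used here. The deposited table is named TPM by the authors, but its values are a score that equals log2 of reads per 1 M plus 1, divided by gene length and rescaled to near-equal column sums. Reads were recovered for 17021 of 17027 genes with GENCODE M21 exon lengths (a length search for 1346 genes). In whole-read genes, 99.87% of values above 0 lay within 0.02 of a whole read, with a tolerance that widened slightly at high reads. A gene was classed as whole-read when a share of at least 0.9 of its checkable values did so. The 99.87% is therefore high by construction. For 67 abundant genes, Kap, Eno1, Gpi1 and Pck1 among them, the recovery could not be checked. All 56 sample columns were used, 1 of them tied to NRF ZT24 by its name but to no single mouse.

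Reads were turned into TPM and rescaled by the median of ratios. Genes with a mean of at least 1 were tested as log2(value + 1) with limma 3.58.1 (R 4.3.3, trended variance) over all 56 libraries in 14 groups, with Benjamini-Hochberg adjustment, as contrasts and as differences between contrasts. Every adjusted p is from this fit. Recovered reads were 25.434 to 28.135 M per library, so precision is set mainly by 4 mice per group. The p-values rest on the spread between mice within groups, pooled for each gene over the 14 groups and moderated across genes. They do not rest only on the groups compared. Fitted on only the groups of the comparison, 2087 genes rose and 1807 fell. Same-numbered mice of the 3 DRF groups had correlations of their deviations from -0.354 to 0.44, and 3 of 12 were over 0.1. Those 3, at 0.396, 0.303 and 0.44, were replicates 2 to 4 of DRF ZT4 with DRF ZT0. The numbers were not taken as pairs, and counts with a replicate block are given below.

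Genes named were the 10 largest rises and falls without overlap at a mean of at least 10, up to 4 called members per list with those of a defining role, and the 5 largest interactions in each direction among genes called under DRF with a mean of at least 10. A few genes that this rule names, members of the lists among them, are not reported here. Further list members were named after their values were seen. Members and lists were chosen with earlier results of these data known. Promoter windows and their sequences are RefSeq, GRCm38.p6. Alternatives covered scaling, pseudocount, filters, baseline, the samples fitted, limma-voom, fold, gene length, a block and each library left out. The scripts were tested on simulated data. Scripts used Python 3.11.15.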

Additional observations from a re-analysis of the deposited data

Results flagged for a closer look

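Of 225 groups of 4 mice checked among the genes taken from the naming rule, 14 had 1 mouse flagged as apart from the other 3. The flag set the gap to the nearest mouse against the range of the group, so a flagged value can be close in level to the others. Chance gives about 1 in 20 independent groups, but these groups came from the same 12 mice and are not independent. DRF ZT4 replicate 4 was the flagged mouse in 5 of the 14, at 55.7 normalised TPM for Gm38481, 32.01 for Tmem252, 188.7 for Scd2, 3.04 for Fbxo32 and 1088 for Aqp2. DRF ZT24 replicate 4 was that mouse for Hspb1 at 21.9, for Wars at 37.7 and for Vdr at 366. DRF ZT0 replicate 1 was that mouse for Pdk4 at 128.0 and for Ccn1 at 36.6. The other 4 were Srebf1 at 19.1 in DRF ZT24 replicate 1, Fads1 at 156.7 in DRF ZT4 replicate 2, Lars at 33.5 in DRF ZT0 replicate 2 and Nr1d1 at 70.2 in DRF ZT24 replicate 2.

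The change from lights-on to ZT4 differed between DRF and NRF, by the interaction test, for 5628 genes. On the log2 scale, DRF minus NRF, it was -4.51 for Angptl4, -3.66 for Pdk4, -3.12 for Gm31371 and -3.06 for Tmem252. It was 3.62 for Nat8f6, 3.36 for Gm38481, 3.03 for Per2, 2.99 for Msmo1 and 2.95 for Sdf2l1. Against NRF ZT16 minus ZT12 the interaction passed for 911 genes. It was -2.78 for Nfil3, -2.38 for Ypel2, -2.34 for Tgtp1, -2.16 for Gbp6 and -2.15 for Iigp1. It was 5.03 for Dbp, 3.09 for Nr1d1, 2.24 for Per3, 2.0 for Gsta1 and 1.92 for R3hdml.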

How the results depend on the processing

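Counts of genes higher, lower, differing between regimens at lights-on and differing from NRF ZT12 to ZT16 were 2525, 2274, 5628 and 911. With a minimum of 1.5-fold they were 233, 281, 1625 and 300.0, by construction of that limit. With only the groups of the comparison in the fit, the last count was 403, and the cause was not tested. All other alternatives gave counts within 1.5 times. Leaving out 1 library gave 2091 to 2585 higher, 1918 to 2289 lower, 5205 to 5658 and 621 to 1350 differing. The counts were 2585, 2180, 5625 and 1350 without DRF ZT4 replicate 4, and 2411, 2168, 5485 and 926 without DRF ZT0 replicate 1. The deposited values taken as TPM gave 1969 higher and 2310 lower, so 46.0% of the calls were higher, against 52.6% in the reported fit. With the replicate block, where the numbers were not taken to pair the mice, the counts were 2519, 2276, 5578 and 916. The authors' effective library sizes, an alternative chosen after seeing the data, gave 2498, 2281, 5619 and 897. Over 2315 values in 25 settings of the 75 genes taken from the naming rule, 2234 kept their direction and side of the threshold. A further 81 kept the direction but no longer passed, and 0 reversed. List members named beyond the rule, such as Xbp1, Insig1, Cpt1a and Arntl, are not in these counts. Of those 81, 20 came with the 1.5-fold minimum, 16 with ZT24 alone as baseline and 7 without DRF ZT4 replicate 2. Genes under a mean of 1 were left out of the reported fit by its filter. With no filter on low values, 2502 genes were higher and 2405 lower.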
